A study of Arabidopsis thaliana with 12 samples.

Results

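Open flowers of Arabidopsis thaliana ask1 plants were compared with open flowers of Col-0, in 2 libraries each, which were 4 of the 12 libraries of the study. They were chosen by genotype and tissue label, and all 33602 genes of the count tables were examined. The ask1 plants carried the Ds transposon allele of ASK1, as their labels give it. The study also sequenced open flowers of plants with a wild-type ASK1 allele (ASK1 WT) and floral buds of all 3 genotypes, used here where they bear on the flowers. Every library carried the strain label Col-0, which therefore does not separate the genotypes, and the labels do not say how many plants or lines each library came from. All tissue came from primary inflorescences harvested 5 h after dawn, 10 to 50 mg per sample, from plants under 16 h of light at 21 °C and 8 h of dark at 19 °C, and was sequenced in paired reads of 150 nt. The title of the study describes the ask1 plants as fertile.

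ASK1 encodes a SKP1-like protein. SKP1 proteins are the adaptor of SCF ubiquitin ligases, in which a cullin, CUL1, and a RING protein, RBX1, form the catalytic part and an exchangeable F-box protein selects the substrate for degradation by the 26S proteasome. In Arabidopsis, F-box proteins are the receptors or regulators of auxin (TIR1), jasmonate (COI1), gibberellin (SLY1) and ethylene (EBF1, EBF2) signalling, and the F-box proteins ZTL and FKF1 regulate the circadian clock and flowering in response to light. The flower is also where ASK1 is best known, from meiosis in the anther and from floral organ identity.

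In ask1 open flowers, RNA of several evening-expressed clock genes was up to 21.2-fold higher than in Col-0, RNA of the morning clock genes LHY and CCA1 was lower, and 49 of 63 mature pollen genes were lower. Jasmonate, ethylene, flavonoid and expansin genes were lower in smaller numbers. At a Benjamini-Hochberg adjusted p of 0.05 in edgeR's quasi-likelihood test, 2816 of 21890 tested genes rose (12.9% of the tested genes) and 3137 fell (14.3%). In each of these 5953 genes both ask1 libraries lay beyond both Col-0 libraries. The same separation was seen in 58.3% of all tested genes, with 6576 above Col-0 and 6195 below. It therefore adds little to a call, here and where it is given for single genes below. Large changes were mostly falls: 165 genes rose and 986 fell at least 4-fold, and 47 rose and 517 fell at least 8-fold. The median log2 change of all tested genes was 0.01. Among the genes that changed, 60 had no count in either ask1 library and 3 had none in either Col-0 library. The counts of called genes depended on single libraries. Without ask1 library 2, 5586 genes rose and 5661 fell. Without Col-0 library 1, 771 rose and 2162 fell, and without Col-0 library 2, 658 rose and 2224 fell. The spread behind the p-values was estimated from all 12 libraries in 6 groups, not from the 4 compared libraries alone. In a fit of the compared groups alone, 1588 of the 5953 genes (26.7%) kept their call. Because the labels do not say that the 2 libraries of a group came from separate plants, the p-values measure only the spread between libraries within groups, which may be technical.

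Both ask1 libraries were also examined singly, because library 1 differed from library 2 in a way that followed gene length. For each gene, the log2 CPM (counts scaled to a common library size) of each library were set against the mean of both Col-0 libraries. In ask1 library 1 the median of this difference was 0.55 for genes with up to 1000 nt of exon sequence, 0.11 for over 1500 to 2000 nt, -0.67 for over 3000 to 4000 nt and -1.13 for over 4000 nt. In ask1 library 2 the same medians lay between 0.00 and 0.02 in all 6 length classes. Across 21826 genes with a known exon length, the difference had a Spearman correlation with length of -0.468 in ask1 library 1 and of 0.005 in library 2, against -0.009 and -0.010 in the ASK1 WT flower libraries. The ask1 libraries differed beyond the level of other replicates: the chi-square statistic per gene between them was 63.2, against 3.85 to 10.4 between the libraries of the 5 other groups. Their differences from Col-0 still went together across the 21890 genes (r = 0.740), a description that rests on the same Col-0 libraries in both and on genes, which are not replicates.

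**Figure D1:**
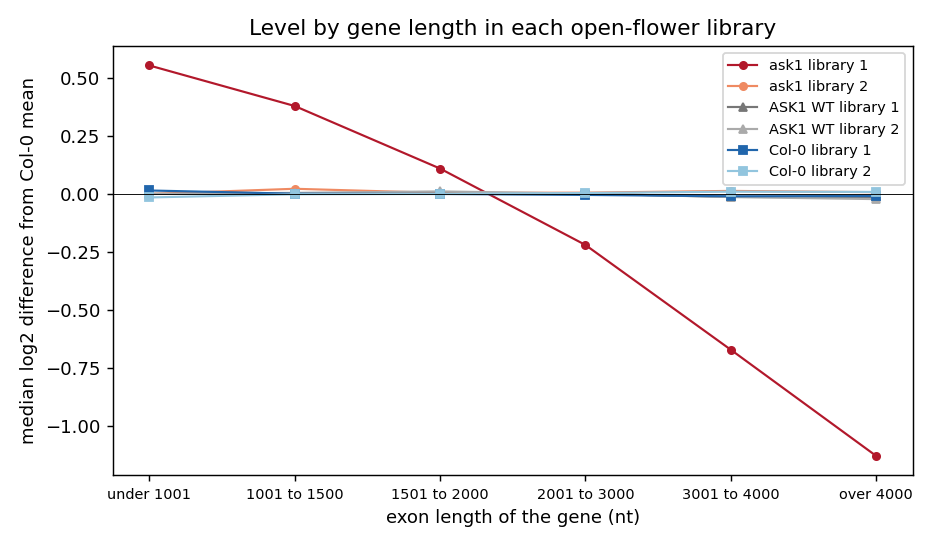
Median log2 CPM difference of each open-flower library from the mean of both Col-0 libraries (vertical axis), by exon length of the gene in nt (horizontal axis), with 1 line per library of ask1, ASK1 WT and Col-0. Library 1 of ask1 falls from 0.55 in the shortest class to -1.13 in the longest, and the 5 other lines stay near 0.

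The length trend reached the calls. Among the shortest genes, up to 1000 nt, 18.8% rose and 10.5% fell, whereas among genes over 4000 nt 1.45% rose and 15.4% fell. With a smooth length trend removed from every library, between 9.88% and 16.0% of each class rose and between 13.96% and 18.6% fell. UPL1 and UPL2, which encode HECT ubiquitin ligases and have 11404 and 11639 nt of exons, were among the genes that differed most between the ask1 libraries. A gene on the opposite strand overlaps UPL1. UPL1 had 50.0 CPM in ask1 library 1 and 382 CPM in ask1 library 2, against 361 and 363 CPM in Col-0. UPL2 had 98.8 CPM in ask1 library 1 and 551 CPM in library 2, against 580 and 584 CPM in Col-0. In both genes library 1 was low and library 2 was at or near the Col-0 level. The opposite contrast was seen for EXPA8, an expansin gene of 1325 nt, with 110 CPM in ask1 library 1 and 24.3 CPM in library 2, against 80.3 and 120 CPM in Col-0, so that here library 2 stood apart. Of the genes ranked by this difference, SADHU2-1 and UNE15 went against the length trend. SADHU2-1, with 891 nt and a same-strand overlap, had 0.771 and 13.7 CPM in ask1 library 1 and 2, against 15.7 and 15.4 CPM in Col-0. UNE15, with 4151 nt and overlaps on both strands, had 27.6 and 8.42 CPM in ask1 library 1 and 2, against 52.9 and 55.8 CPM in Col-0. UPL1, UPL2, EXPA8 and SADHU2-1 did not pass the test. UNE15 fell, but its call was lost with the length trend removed.

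A gene is called held below when it passed in the same direction in 4 further fits: with only the ask1 and Col-0 flower libraries, with the length trend removed, without ask1 library 1, and without ask1 library 2. This summary was chosen after the results of the single fits were known. By this criterion 333 genes rose (1.52% of the tested genes) and 1183 fell (5.4%). The share of held rises was 2.04% among genes up to 1000 nt, 0.293% among genes of over 3000 to 4000 nt and 0 among genes over 4000 nt, so this share was also lower for longer genes. Genes called below held unless stated otherwise. The counts of each gene list below are to be read beside 12.9% rises and 14.3% falls over all tested genes. For held genes these shares were 1.52% and 5.4%.

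**Figure D2:**
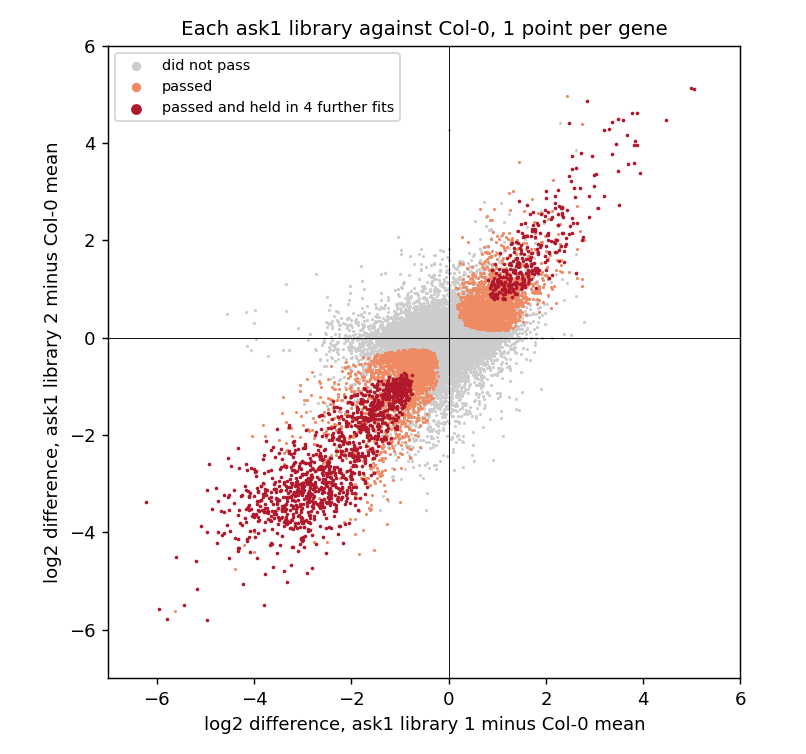
Log2 CPM difference from the Col-0 mean in ask1 library 1 (horizontal axis) and ask1 library 2 (vertical axis), 1 point per tested gene; orange points passed the test and red points also held in the 4 further fits. The 1183 held falls extend past -4 in both libraries, and the 333 held rises form a smaller arm at the upper right.

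Depth was alike in the 4 libraries, with 16242961 and 16534841 counts in genes in ask1 and 17625284 and 17261607 in Col-0; all 12 libraries ranged from 13780265 to 23426466 counts, with 22825 to 24008 genes detected. A count of 0 allowed a level of up to 3 counts, or 0.128 to 0.218 CPM depending on the library, and this limit covers counting error only. ASK1 itself (AT1G75950, chr1:28516519-28517896, plus strand, TAIR10.1) had 50.9 and 29.6 CPM in ask1 flowers, 289 and 299 CPM in ASK1 WT flowers and 307 and 310 CPM in Col-0 flowers. Both ask1 libraries were below all others, and ASK1 fell 7.67-fold (log2 change -2.94 ± 0.39, SE, adjusted p = 3.81e-04). Reads over the gene remained in both ask1 libraries, and where on the gene they lay is not recorded in a count table. Within 1 Mb of ASK1, 70 of 486 tested genes rose (14.4%) and 84 fell (17.3%), against 12.9% and 14.3% of all tested genes.

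Markers of floral organs were present in both genotypes. The summed level of the petal and stamen identity genes AP3 and PI was 457 and 353 CPM in ask1, against 317 and 354 CPM in Col-0, and neither gene passed the test. The stamen and carpel identity gene AG had 49.1 and 49.9 CPM in ask1 and 42.0 and 39.5 CPM in Col-0. SEP1, SEP2 and SEP3, the cofactors of all floral organ identity genes, summed to 625 and 495 CPM in ask1, against 490 and 496 CPM in Col-0. The 6 carpel and ovule markers summed to 286 and 231 CPM in ask1 and to 277 and 258 CPM in Col-0, so that the groups overlapped. Of these 6 markers, 1 rose. Of 4 tapetum markers, 3 were at 0 in both genotypes, and the sum of all 4 was at most 0.118 CPM in ask1 and 0.309 CPM in Col-0. AP1, which specifies sepals and petals, was higher, with 61.7 and 46.8 CPM in ask1 against 30.1 and 39.0 CPM in Col-0 (log2 change 0.65 ± 0.16, adjusted p = 0.0145). It was not called in the fit of the compared groups alone or without Col-0 library 1. The 2 nectary markers summed to 249.9 and 167 CPM in ask1, below 294 and 382 CPM in Col-0, and 1 of them fell. The 3 green-tissue markers summed to 10189 and 7640 CPM in ask1, above 7171 and 6966 CPM in Col-0, and 1 of them rose. Mature pollen markers summed to 842 and 750 CPM in ask1 and to 6842 and 6926 CPM in Col-0.

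The other SCF genes mostly did not pass the test. ASK2, the closest paralog of ASK1 and partly redundant with it, had 106 and 72.9 CPM in ask1 and 64.6 and 70.6 CPM in Col-0 (log2 change 0.40 ± 0.16, adjusted p = 0.0874). Genes on the opposite strand overlap ASK2 and COI1, described next, and because the counting strand is not given in the sources used here, their reads could not be told apart from those of their neighbours. CUL1 had 229 and 321 CPM in ask1 and 339 and 354 CPM in Col-0 (-0.33 ± 0.16, adjusted p = 0.145). The auxin receptor gene TIR1 had 68.5 and 113 CPM in ask1 and 88.2 and 103 CPM in Col-0, and the jasmonate receptor gene COI1 24.0 and 35.5 CPM in ask1 and 33.2 and 36.1 CPM in Col-0. For both genes the groups overlapped, with log2 changes of -0.08 ± 0.20 and -0.22 ± 0.16. Of 24 SCF core and RUB pathway genes tested, 3 rose and 3 fell, with a median log2 change of 0.27 against 0.01 over all tested genes; without ask1 library 2 the count was 11 rises and 5 falls, and without ask1 library 1 it was 0 rises and 4 falls. CUL2, a cullin gene, had 0.257 and 0.235 CPM in ask1 against 2.42 and 1.55 CPM in Col-0 and fell (-2.98 ± 0.37, adjusted p = 2.41e-04), with an opposite-strand overlap. Of 30 genes for proteasome subunits, 3 rose and none fell; the list's median was 0.41 in ask1 library 1 and -0.06 in library 2, and without ask1 library 2 21 of 30 rose whereas without library 1 none rose and 6 fell. None of the 30 held.

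The circadian clock of plants is a loop of morning and evening repressors: the morning MYB factors CCA1 and LHY repress evening genes such as TOC1, PRR5, ELF4 and LUX, whose products repress the morning genes in turn. Many targets of CCA1 and LHY carry the evening element, a short A- and T-rich promoter sequence. The flowers were sampled in the first part of the light period. Of 26 clock genes tested, 11 rose and 8 fell, and 7 rises and 3 falls held. Leaving out 1 of the 4 libraries gave 8 to 13 rises and 7 to 9 falls. The list's median log2 change was 0.14 in ask1 library 1 and 0.65 in library 2. The ask1 difference passed a test between flowers and buds for 2 members, LUX and BOA, both more positive in flowers.

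The promoters of 3 risen genes are shown because each holds the evening element, whose share among the strong rises differed most from that in all promoters. Each run covers 250 bases before to 50 bases after the gene's annotated start, in the gene's own direction, from RefSeq TAIR10.1: GRP7 at chr2:9266508-9266807 on the minus strand, FKF1 at chr1:25508389-25508688 on the plus strand and LUX at chr3:17182792-17183091 on the plus strand. Capitals mark each exact match of AAAATATCT or its reverse complement AGATATTTT.
GRP7: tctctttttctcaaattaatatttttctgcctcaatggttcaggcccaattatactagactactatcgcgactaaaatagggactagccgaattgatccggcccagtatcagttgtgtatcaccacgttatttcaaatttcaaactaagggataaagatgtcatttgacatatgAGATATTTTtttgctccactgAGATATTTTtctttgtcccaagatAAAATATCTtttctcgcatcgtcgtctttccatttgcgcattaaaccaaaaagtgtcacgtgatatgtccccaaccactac
FKF1: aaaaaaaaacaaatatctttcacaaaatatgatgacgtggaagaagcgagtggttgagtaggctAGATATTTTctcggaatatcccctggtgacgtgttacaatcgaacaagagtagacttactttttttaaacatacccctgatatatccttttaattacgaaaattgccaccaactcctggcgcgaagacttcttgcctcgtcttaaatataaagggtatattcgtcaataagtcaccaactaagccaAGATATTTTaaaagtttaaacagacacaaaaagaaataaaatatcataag
LUX: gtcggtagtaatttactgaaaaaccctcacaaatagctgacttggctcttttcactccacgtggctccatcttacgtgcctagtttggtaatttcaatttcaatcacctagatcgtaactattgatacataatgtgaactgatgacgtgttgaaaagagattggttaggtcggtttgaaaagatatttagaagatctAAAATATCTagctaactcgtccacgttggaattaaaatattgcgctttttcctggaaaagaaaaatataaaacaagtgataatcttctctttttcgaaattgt
The motif was found 3 times in the GRP7 window, 2 times in that of FKF1 and 1 time in that of LUX.

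FKF1 and GRP7 were not on the clock list and are described with it. COR27 (AT5G42900), a cold- and light-regulated repressor of evening genes, had 19.5 and 32.7 CPM in ask1, against 1.09 and 1.36 CPM in Col-0, and rose 21.2-fold (log2 change 4.41 ± 0.35, adjusted p = 1.09e-05). FKF1 (AT1G68050), the light-sensing F-box protein that targets repressors of CONSTANS, had 37.6 and 67.9 CPM in ask1 and 2.91 and 2.41 CPM in Col-0 (19.8-fold, 4.31 ± 0.29, adjusted p = 4.22e-06), with an opposite-strand overlap. GRP7 (AT2G21660), an RNA-binding protein of a clock output loop, had 3933 and 3617 CPM in ask1, against 339 and 275 CPM in Col-0 (12.3-fold, 3.62 ± 0.19, adjusted p = 1.41e-06). In all 3 genes both ask1 libraries were far above both Col-0 libraries, and library 2 was the higher one for COR27 and FKF1. PRR3, a pseudo-response regulator that stabilizes TOC1, had 11.4 and 23.1 CPM in ask1 and 1.63 and 0.495 CPM in Col-0 (4.01 ± 0.53, adjusted p = 3.42e-04). PRR5, a repressor of CCA1 and LHY, had 103 and 134 CPM in ask1 and 15.2 and 16.4 CPM in Col-0 (2.91 ± 0.16, adjusted p = 1.41e-06). ELF4, a subunit of the evening complex, had 22.7 and 28.6 CPM in ask1 and 3.57 and 1.98 CPM in Col-0 (3.2 ± 0.31, adjusted p = 4.48e-05). LUX, the DNA-binding subunit of that complex, had 37.1 and 49.3 CPM in ask1 and 11 and 11.9 CPM in Col-0 (1.91 ± 0.14, adjusted p = 8.91e-06), with an opposite-strand overlap. The groups did not overlap in any of these genes, and the ASK1 WT libraries lay at or below the Col-0 level in COR27, FKF1, GRP7, PRR5 and LUX.

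JMJD5, a histone demethylase gene of the evening phase, had 21.3 and 33.3 CPM in ask1 and 4.72 and 5.88 CPM in Col-0 (log2 change 2.36 ± 0.22, adjusted p = 2.97e-05). The values of TOC1, CCA1, LNK2, PRR9 and GI were seen before these genes were chosen for mention. TOC1 had 73.1 and 142 CPM in ask1 and 44.0 and 41.1 CPM in Col-0 (1.34 ± 0.25, adjusted p = 0.00287); it did not hold in the fit of the compared groups alone, nor was it called without Col-0 library 2. GI, a clock protein that binds ZTL and FKF1, had 72.5 and 210 CPM in ask1 and 73.6 and 77.2 CPM in Col-0, so that library 1 lay below Col-0 and library 2 above it (0.91 ± 0.36, adjusted p = 0.0847); its exons span 4303 nt. Of the morning genes, LHY had 18.1 and 22.6 CPM in ask1, against 55.1 and 66.9 CPM in Col-0, a 2.99-fold fall (-1.58 ± 0.18, adjusted p = 1.07e-04). CCA1 had 15.3 and 18.4 CPM in ask1 and 41.2 and 51.5 CPM in Col-0 (-1.46 ± 0.16, adjusted p = 9.28e-05). LNK2, a coactivator of afternoon genes, had 83.2 and 93.6 CPM in ask1 and 236 and 284 CPM in Col-0 (-1.56 ± 0.14, adjusted p = 2.63e-05), with an opposite-strand overlap. Both ask1 libraries were low and close to each other in these 3 genes. In buds, LHY had 15.4 and 14.4 CPM in ask1 and 73.4 and 58.2 CPM in Col-0, also without overlap. PRR9, the earliest of the pseudo-response regulators, which has a near-identical copy that could share reads, fell less, with 9.70 and 9.36 CPM in ask1 and 12.9 and 17.1 CPM in Col-0 (-0.65 ± 0.16, adjusted p = 0.0145), and its call was lost without Col-0 library 2 and in the fit of the compared groups alone.

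**Figure D3:**
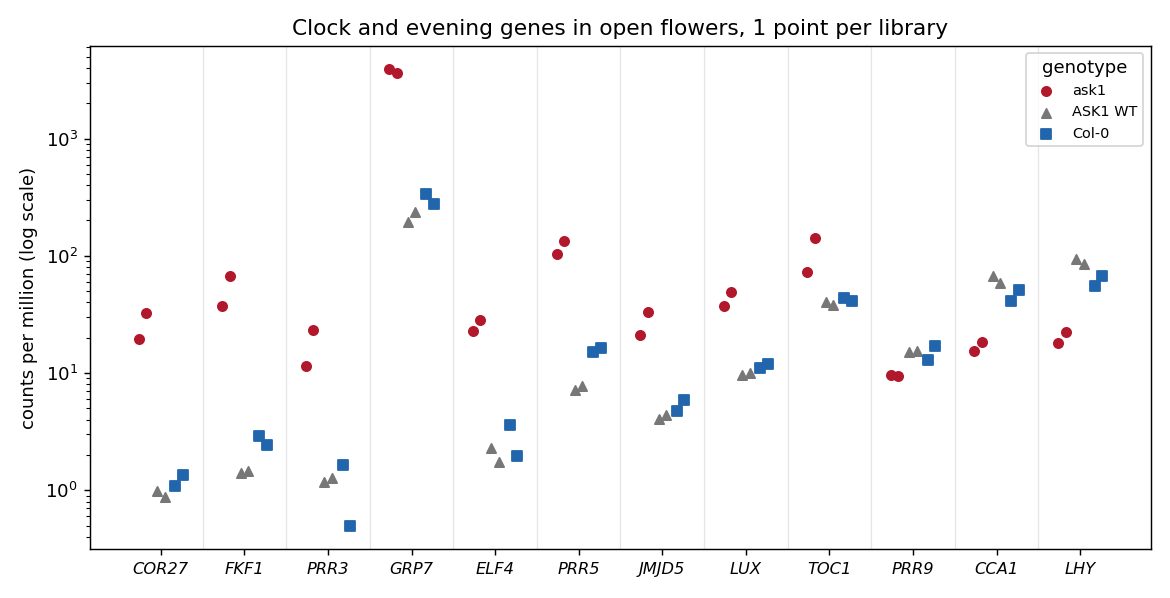
CPM on a log axis for 12 clock and evening genes in open flowers, 1 point per library of ask1 (circles), ASK1 WT (triangles) and Col-0 (squares). The ask1 points lie above both other genotypes from COR27 to TOC1 and below them for PRR9, CCA1 and LHY.

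Among output genes of light and day length, COL9, a CONSTANS-like repressor of flowering, had 55.4 and 87.0 CPM in ask1 and 19.0 and 20.05 CPM in Col-0 and rose (log2 change 1.87 ± 0.21, adjusted p = 1.07e-04). It was the only held rise of the 30 photoperiod and flowering-time genes tested, of which 7 rose and 4 fell (median 0.04); without ask1 library 1, 6 rose and 8 fell, without ask1 library 2, 11 rose and 3 fell, and without Col-0 library 1 and library 2, 3 and 4 rose. MAF5, a MADS-box repressor of flowering, was the held fall. It had 0.963 and 0.471 CPM in ask1, 0.405 and 0.175 CPM in ASK1 WT and 11.6 and 13.3 CPM in Col-0 (ask1 against Col-0, -4.12 ± 0.31, adjusted p = 9.15e-06). Both ASK1 WT libraries were as low as the ask1 libraries, and ASK1 WT differed from Col-0 by -5.33 on the log2 scale (adjusted p = 2.81e-04).

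The evening element was searched on both strands as AAAATATCT in the 300-base windows of 21825 tested genes with a promoter in TAIR10.1. It was found in 3.04% of them. It was found in 17.0% (28 of 165) of genes that rose at least 4-fold, in 11.3% (62 of 550) of those that rose 2- to 4-fold and in 3.91% (82 of 2099) of those that rose less. Among genes that fell, the share was 2.03% at 4-fold or more, 2.82% at 2- to 4-fold and 1.72% below that, and among genes that did not pass it was 2.68%. Of the held rises 17.7% (59 of 333) had it, and of the held falls 2.2%. Of the 11 clock genes that rose, 7 had it, among them PRR5, TOC1 and LUX, against 1 of 8 that fell (PRR9) and 0 of 7 that did not pass. None of the 49 fallen pollen genes had it. Searched in the same windows, the CCA1-binding site AAAAATCT was in 5.45% of the rises of at least 4-fold and 8.06% of all promoters, and the G-box CACGTG in 8.48% and 8.46%. The core of the drought- and cold-response element, CCGAC, was in 17.0% of these rises and 15.6% of all promoters, but in 8.42% of the falls of at least 4-fold. None of the 4 motifs contains another. A match describes the letters of a window and is not evidence that a factor binds there.

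**Figure D4:**
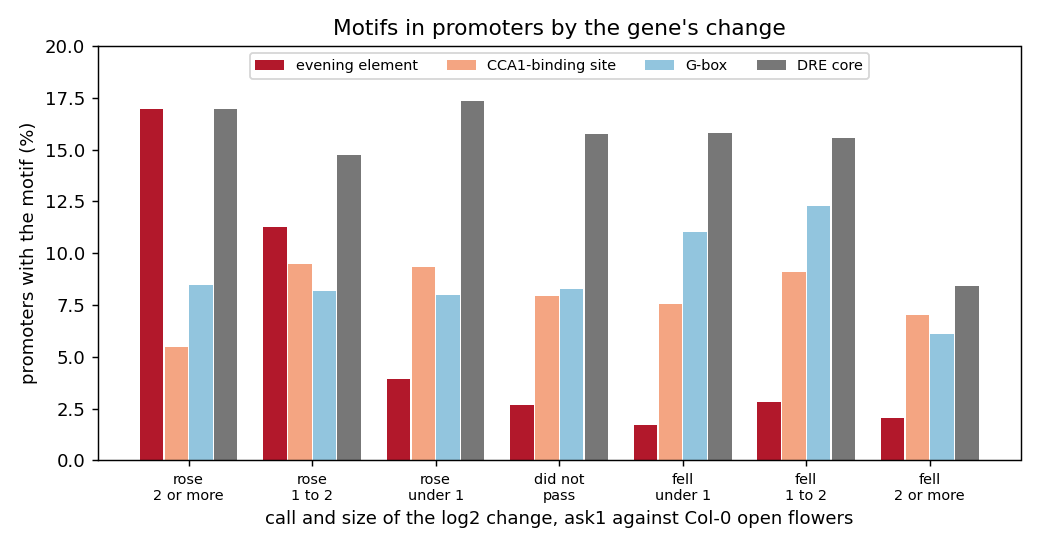
Share of promoter windows that hold each of 4 motifs (vertical axis, %), by whether and how far the gene rose or fell in ask1 against Col-0 flowers (horizontal axis, log2 change). The evening element is at 17.0% in the strongest rises and 2.03% in the strongest falls, while the CCA1-binding site stays between 5.45% and 9.45%.

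Rises outside the clock included defence and glucosinolate genes. PR5, a thaumatin-like pathogenesis-related protein, had 73.5 and 89.7 CPM in ask1 and 12.1 and 11.9 CPM in Col-0 (6.80-fold, log2 change 2.77 ± 0.15, adjusted p = 1.41e-06). BG3, a beta-1,3-glucanase, had 7.51 and 14 CPM in ask1 and 0.484 and 0.557 CPM in Col-0 (4.35 ± 0.48, adjusted p = 3.09e-04). PR1, the marker gene of salicylate response, did not go with them: it was at 0 counts in both ask1 libraries and at 8 counts in Col-0, at least 2.66-fold lower, and the call did not hold. Of 23 salicylate and defence genes tested, 6 rose and 4 fell with a median of 0.15; without Col-0 library 1 and library 2 there were 3 and 2 rises and 2 falls each. IGMT4, an indole glucosinolate methyltransferase gene, had 32.4 and 68.8 CPM in ask1 and 5.27 and 2.23 CPM in Col-0 (3.75 ± 0.61, adjusted p = 0.00138). CYP83B1, the entry enzyme of the indole glucosinolate core pathway, had 91.7 and 109 CPM in ask1 and 30.6 and 34.4 CPM in Col-0 (1.63 ± 0.19, adjusted p = 1.50e-04). MYB28, the regulator of aliphatic glucosinolates, had 18.4 and 18.8 CPM in ask1 and 6.72 and 6.75 CPM in Col-0 (1.46 ± 0.18, adjusted p = 1.96e-04). In all 3 both ask1 libraries were above Col-0, yet of 32 glucosinolate genes 10 rose and 3 fell and the median was -0.18. Without Col-0 library 1 or 2, 5 of them rose, and without either ask1 library 6 fell.

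Of 15 cold-regulated genes tested, COR27 among them, 7 rose, 8 did not pass and none fell, and 4 rises held. COR78, an effector of freezing tolerance, had 49.6 and 61.1 CPM in ask1 and 12.8 and 8.36 CPM in Col-0 (log2 change 2.39 ± 0.26, adjusted p = 9.09e-05). COR15B, a chloroplast cryoprotectant, had 52.5 and 45.9 CPM in ask1 and 12.4 and 8.42 CPM in Col-0 (2.24 ± 0.19, adjusted p = 1.74e-05). CBF3, a factor that activates such genes through the CCGAC core, had 10.0 and 8.71 CPM in ask1 and 1.63 and 1.73 CPM in Col-0 (2.47 ± 0.34, adjusted p = 4.62e-04). CBF3 was not on the cold-regulated list. It was the only rise of the 30 rapid stress genes described below, among which CBF1 and CBF2 did not rise. COR15B and CBF3 overlap genes on the opposite strand. The list's median was 0.75 in ask1 library 1 and 0.19 in library 2; the number of rises was 4 without Col-0 library 2, and without ask1 library 1 5 rose and 1 fell.

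Green-tissue genes moved with library 1. PORB, a light-dependent chlorophyll synthesis enzyme, was a held rise, with 660 and 846 CPM in ask1 and 175 and 130 CPM in Col-0 (log2 change 2.30 ± 0.18, adjusted p = 9.38e-06) and an opposite-strand overlap. It was the only held gene of 17 in chlorophyll synthesis, of which 3 rose; without ask1 library 2 there were 11 rises and 2 falls, and 2 rises without Col-0 library 1 and 1 without Col-0 library 2. Of 47 photosynthesis genes 15 rose, none fell and none held. Their median was 0.65 in ask1 library 1 and 0.15 in library 2, and their median exon length was 1295 nt, against 1748 nt over all tested genes. The count of rises was 43 without ask1 library 2, 10 (with 2 falls) without ask1 library 1, and 2 and 1 without Col-0 library 1 and 2. CCOAMT, a caffeoyl-CoA methyltransferase family gene, had 1.35 and 5.83 CPM in ask1 and 0.121 and 0.0619 CPM in Col-0, 120 counts against 3, a ratio of 40.2 (13.4 to 197). RbcX1, a Rubisco assembly chaperone, had 5.46 and 5.48 CPM in ask1 and 0.242 and 0.0619 CPM in Col-0 (5.10 ± 0.52, adjusted p = 6.20e-05), with an opposite-strand overlap. Both were near 0 in Col-0 and above it in both ask1 libraries. Among abundant rises, MEE14, first named from embryo arrest, had 318 and 406 CPM in ask1 and 42.4 and 37.3 CPM in Col-0 (3.18 ± 0.24), and GRP-3, a glycine-rich wall protein, had 160 and 287 CPM in ask1 and 34.2 and 24.0 CPM in Col-0 (2.94 ± 0.34). PDC2, a pyruvate decarboxylase of fermentation, had 134 and 197 CPM in ask1 and 40.5 and 36 CPM in Col-0 (2.11 ± 0.17). No ask1 library overlapped a Col-0 library in these 3 genes.

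Pollen genes had the lowest median of the 34 gene lists. Mature pollen grains carry RNA for a tip-growing pollen tube: receptor kinases, calcium and potassium transporters, wall enzymes and the factors of the MIKC* and MYB families that switch these genes on. Of 63 mature pollen and pollen tube genes tested, 49 fell, 2 rose and 12 did not pass, and 46 falls held. Leaving out 1 of the 4 libraries gave 48 to 51 falls and 1 or 2 rises. The median log2 change was -2.80, with -2.54 in ask1 library 1 and -3.00 in library 2, against 0.01 over all tested genes in each. In bulk tissue, fewer pollen grains and less RNA per grain cannot be told apart. Of the 10 mature pollen markers of the tissue check, 9 fell and 1, TIP1;3, rose.

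PRK2, a receptor kinase that organizes tip growth, had 36 and 44.7 CPM in ask1, against 567 and 590 CPM in Col-0, and fell 14.3-fold (log2 change -3.84 ± 0.51, adjusted p = 3.74e-04). SPIK, the pollen inward potassium channel, had 7.45 and 10.5 CPM in ask1 and 135 and 142 CPM in Col-0, a 15.3-fold fall (-3.94 ± 0.21, adjusted p = 1.41e-06). ANX2, which keeps the pollen tube from bursting, had 15.2 and 19.7 CPM in ask1 and 221 and 242 CPM in Col-0 (-3.73 ± 0.26, adjusted p = 5.81e-06). In these 3 genes the ask1 libraries lay close together and far below Col-0. PRK6, the receptor of the ovule attractant LURE1, had 0.899 and 0.824 CPM in ask1 and 16.4 and 15.5 CPM in Col-0 (-4.20 ± 0.24, adjusted p = 1.80e-06). ACA9, a calcium pump of the pollen plasma membrane, had 19.1 and 38.7 CPM in ask1 and 402 and 419 CPM in Col-0 (-3.83 ± 0.31, adjusted p = 1.44e-05), with an opposite-strand overlap. GEX3, a gamete membrane protein gene, had 0.257 and 0.648 CPM in ask1 and 6.23 and 6.93 CPM in Col-0 (-3.82 ± 0.38, adjusted p = 5.22e-05). The abundant F-box gene DAF1 had 74.8 and 68.9 CPM in ask1 and 884 and 909 CPM in Col-0 (-3.64 ± 0.61, adjusted p = 0.00162). All 4 of these genes were low in both ask1 libraries without overlap. Of the 2 pollen-list genes that rose, the sugar transporter gene STP4 held and the aquaporin gene TIP1;3 did not. Among the 12 that did not pass, the sucrose transporter gene SUC8 had 0.385 and 0 CPM in ask1 and 1.15 and 1.3 CPM in Col-0. In buds the median of the list was -3.73; the ask1 difference was more positive in flowers than in buds for 10 members and more negative for 3. The pollen-wall and tapetum genes, active before pollen matures, could be compared in part only: 17 of the 39 tested had at most 3 counts summed over each genotype's open flowers. Of the 39, 3 rose and 3 fell, and 6 fell without ask1 library 1. CALS5, which makes the callose wall of microspores, was the held fall, with 4.05 and 13.1 CPM in ask1 and 48.2 and 48.2 CPM in Col-0 (-2.48 ± 0.40, adjusted p = 0.00133).

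Some of the deepest falls were genes of low level in Col-0 flowers. XTH1, a xyloglucan-modifying wall enzyme gene, had no count in ask1 and 79 counts in Col-0, at least 26.2-fold lower in ask1; DESeq2 did not call it. EXPA22 had 1 count in ask1 and 136 in Col-0, a ratio of 135 with a 95% counting interval from 23.9 to 5390, and its reads could be shared with a near-identical copy. LCR60, for a small cysteine-rich peptide, had 1 count in ask1 and 103 in Col-0, a ratio of 103 (18.0 to 4092), with an opposite-strand overlap. Expansins loosen cell walls, and of 26 tested 12 fell and none rose, with 6 held falls, and 9 to 16 falls when 1 library was left out. EXPA25 had 0.128 and 0.235 CPM in ask1 and 7.14 and 4.08 CPM in Col-0 (log2 change -4.88 ± 0.50, adjusted p = 1.93e-04), and EXPA23 had 0.257 and 0.177 CPM in ask1 and 3.15 and 1.73 CPM in Col-0 (-3.46 ± 0.55, adjusted p = 0.00241). The median over the 26 was -0.34 in ask1 library 1 and -1.01 in library 2. Both named expansin genes were near 0 in both ask1 libraries and low in Col-0.

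BAS (AT1G78950, chr1:29684236-29688800, minus strand), a terpenoid cyclase gene, had 1.86 and 4.12 CPM in ask1 and 99.9 and 93.3 CPM in Col-0 and fell 31.9-fold (log2 change -5.00 ± 0.25, adjusted p = 1.37e-06). Its difference from Col-0 was -5.61 in ask1 library 1 and -4.51 in library 2. CYP78A5, a P450 enzyme that promotes organ growth, had 0.128 and 0.0589 CPM in ask1 flowers and 2.78 and 1.86 CPM in Col-0 flowers, 3 counts against 76, a ratio of 25.2 (8.31 to 125). In buds it had 16.5 and 15.8 CPM in ask1 and 18.7 and 15.1 CPM in Col-0, and the ask1 difference was 4.49 log2 units lower in flowers than in buds (adjusted p = 0.00216).

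Jasmonate drives the last steps of stamen growth and anther opening: COI1 binds the hormone and marks JAZ repressors for degradation, which frees MYC factors and, in stamens, MYB21 and MYB24. Of 16 synthesis and turnover genes tested, 10 fell and none rose, 3 falls held, and the median log2 change was -0.77 in ask1 library 1 and -0.88 in library 2. Without Col-0 library 1 the count was 6 falls, and with other single libraries left out it was 8 or 9. LOX3, a lipoxygenase of the first step, had 15 and 19.2 CPM in ask1 and 71.1 and 50.5 CPM in Col-0 (-1.83 ± 0.25, adjusted p = 4.67e-04). AOC3, an allene oxide cyclase, had 3.92 and 2.41 CPM in ask1 and 11 and 11.6 CPM in Col-0 (-1.84 ± 0.38, adjusted p = 0.00584); without ask1 library 2 it was -1.53 and no longer called. Both were low in both ask1 libraries.

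Of 26 jasmonate signalling and response genes, 12 fell and 1 rose, with 5 held falls; 7 fell without Col-0 library 1, and 10 to 15 when another library was left out. The repressor gene JAZ1 had 48.6 and 44.2 CPM in ask1 and 159 and 157 CPM in Col-0 (3.41-fold lower, log2 change -1.77 ± 0.21, adjusted p = 1.67e-04). JAZ5 had 3.79 and 4.95 CPM in ask1 and 29.3 and 21.2 CPM in Col-0 (-2.52 ± 0.34, adjusted p = 4.14e-04). The transcription factor gene MYC2 had 47.1 and 64.6 CPM in ask1 and 146 and 179 CPM in Col-0 (-1.54 ± 0.34, adjusted p = 0.00814); without ask1 library 1 it was -1.39 and no longer called, and a gene on the opposite strand overlaps it. These 3 genes were low in both ask1 libraries. The rise was MYB24, a stamen filament and petal regulator, with 43.8 and 37.9 CPM in ask1 and 8.53 and 10.2 CPM in Col-0 (2.13 ± 0.22, adjusted p = 5.85e-05), also with an opposite-strand overlap.

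Some of these genes differed between flowers and buds. Over all genes, the ask1 difference from Col-0 was more positive in flowers than in buds for 613 genes (2.8% of the tested genes) and more negative for 473 (2.16%). This total of 1086 fell to 250 without Col-0 bud library 2 and to 498 without Col-0 bud library 1, was 325 and 393 without Col-0 flower library 1 and 2, 656 without ask1 bud library 1, and reached 2652 and 8210 without ask1 flower library 1 and 2. It was more negative in flowers for 5 of the 16 jasmonate synthesis genes and 9 of the 26 signalling genes, and more positive for 3 signalling genes, MYB24 among them. LOX3 had 67.0 and 117 CPM in ask1 buds and 37.4 and 38.8 CPM in Col-0 buds, and its ask1 difference was 3.1 ± 0.35 log2 units lower in flowers (adjusted p = 0.00216). JAZ1 had 44.1 and 77.0 CPM in ask1 buds and 33.2 and 35.0 CPM in Col-0 buds, a difference of 2.59 ± 0.29 lower in flowers (adjusted p = 0.00216). MYB24 had 3.05 and 3.79 CPM in ask1 buds and 9.48 and 7.89 CPM in Col-0 buds, and its ask1 difference was 3.48 ± 0.33 higher in flowers (adjusted p = 0.00111). LOX3 and JAZ1 were thus above Col-0 in both ask1 bud libraries and below it in both ask1 flower libraries, and MYB24 the other way round.

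A list of rapid stress genes held transcription factors and other genes, such as TCH3 and CML38 for calmodulin-like proteins, whose RNA appears soon after wounding or touch. Of 30 tested, 8 fell and 1, CBF3, rose in flowers, with a median log2 change of -0.74, whereas in buds the median was 2.44. The difference was more negative in flowers for 13. SZF1, a zinc finger protein gene of this class, had 28.4 and 46.4 CPM in ask1 flowers and 180 and 209 CPM in Col-0 flowers (-2.38 ± 0.60, adjusted p = 0.0148). In buds it had 21.3 and 128 CPM in ask1 and 15.1 and 14.6 CPM in Col-0, so the ask1 bud libraries were far apart. Of the flower calls of this list, the rise and 2 falls held. The other falls rested on single libraries: they were lost without ask1 library 1 or 2, and fewer genes fell without either Col-0 library. The list's median was -1.01 and -0.79 without ask1 library 1 and 2, and -0.96 and -0.70 without Col-0 library 1 and 2. SZF1 itself was not called without ask1 library 1, at -2.13, without ask1 library 2, at -2.78, or without Col-0 library 2, at -2.35.

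Ethylene genes fell in part. Of 20 tested, 7 fell and 1 rose (median log2 change -0.56), 2 falls held, and 6 to 10 fell when 1 library was left out. ACS2, a rate-limiting ethylene synthesis enzyme, had 2.38 and 2.35 CPM in ask1 and 13.1 and 9.47 CPM in Col-0 (-2.25 ± 0.22, adjusted p = 4.84e-05). EIL1, a homologue of EIN3, had 31.9 and 37.6 CPM in ask1 and 74.0 and 69.6 CPM in Col-0 (-1.05 ± 0.13, adjusted p = 2.01e-04). EIN3, the main ethylene transcription factor, had 144 and 212 CPM in ask1 and 304 and 312 CPM in Col-0 (-0.79 ± 0.17, adjusted p = 0.00609) and was not called in the fit of the compared groups alone. The F-box genes EBF1 and EBF2, whose products degrade EIN3, had log2 changes of -0.60 ± 0.19 and -0.62 ± 0.19. Neither gene held. Both calls were lost in the fit of the compared groups alone and without Col-0 library 1 or 2. EBF2 has an opposite-strand overlap. ACS2, EIL1 and EIN3 lay below Col-0 in both ask1 libraries.

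Of 29 flavonoid genes tested, 17 fell, 12 did not pass and none rose, 5 falls held, and the median log2 change was -0.71 in ask1 library 1 and -1.20 in library 2; 10 fell without Col-0 library 1 and 12 to 17 without another library, and 1 rose without ask1 library 2 and 1 with the length trend removed. LDOX, which makes anthocyanidins, had 4.05 and 6.71 CPM in ask1 and 47.9 and 22.5 CPM in Col-0 (-2.70 ± 0.38, adjusted p = 5.50e-04). UF3GT, an anthocyanin glycosyltransferase gene, had 0.578 and 0.353 CPM in ask1 and 7.38 and 4.58 CPM in Col-0 (-3.68 ± 0.54, adjusted p = 6.79e-04). TT10, a laccase that oxidizes seed-coat tannins, had 1.41 and 0.530 CPM in ask1 and 8.23 and 6.81 CPM in Col-0 (-2.96 ± 0.46, adjusted p = 9.63e-04). The Col-0 libraries were themselves apart in LDOX and UF3GT, with library 1 higher, but the groups did not overlap in any of the 3 genes.

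**Figure D5:**
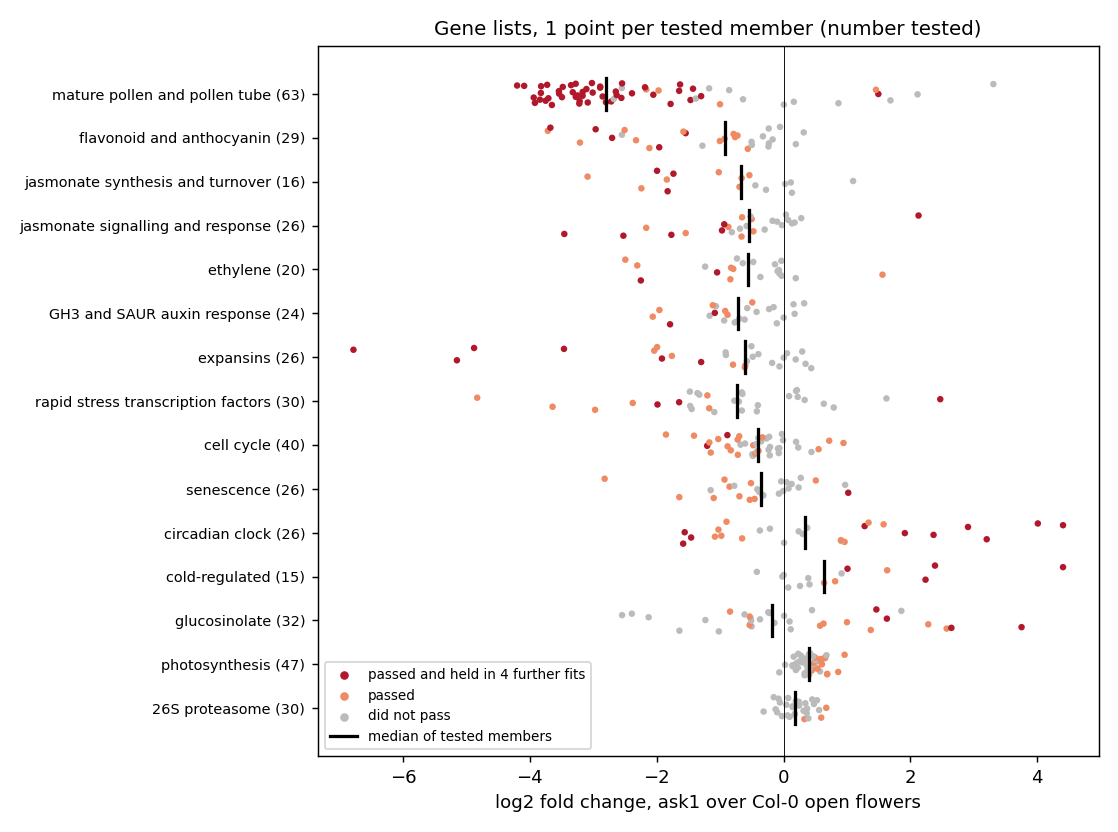
Log2 change of ask1 over Col-0 open flowers (horizontal axis) for the tested members of 15 gene lists, 1 point per gene, coloured by whether it passed and held, with a bar at the median of each list. The pollen list is centred at -2.80, and clock genes spread from -1.58 to 4.41.

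Auxin response genes were lower in ask1 library 2 than in library 1. Of 24 GH3 and SAUR genes, 8 fell and none rose, with medians of -0.17 in ask1 library 1 and -1.38 in library 2, and 18 fell without ask1 library 1, 5 without Col-0 library 1. These 24 genes had a median exon length of 896.5 nt, against 1748 nt over all tested genes. With the length trend removed 17 of the 24 fell and none rose, with a median of -1.02. In buds the list's median was -1.40, with 11 falls and 0 rises. GH3.17, an enzyme that conjugates auxin to amino acids, had 22.9 and 21.7 CPM in ask1 and 73.7 and 80.3 CPM in Col-0 (log2 change -1.79 ± 0.15, adjusted p = 1.61e-05), low in both libraries. Of 26 Aux/IAA repressor genes, 3 rose and 8 fell; 13 fell without ask1 library 1, 5 without ask1 library 2 and 4 without either Col-0 library. IAA31 had 0.257 and 0.235 CPM in ask1 and 4.36 and 1.92 CPM in Col-0 (-3.64 ± 0.67, adjusted p = 0.00297). Of 25 cytokinin genes 2 rose and 4 fell, with 7 and 10 falls without ask1 library 1 and 2. The cytokinin counts stand beside 12.9% of all tested genes that rose and 14.3% that fell. ARR2, a response regulator that activates cytokinin targets, had 16.4 and 26.8 CPM in ask1 and 69.5 and 65.2 CPM in Col-0 (-1.64 ± 0.19, adjusted p = 1.25e-04).

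The next 3 lists stand beside 12.9% of all tested genes that rose, 14.3% that fell and 5.4% that fell and held. Of 40 cell cycle and replication genes, 16 fell and 3 rose, and 2 falls held, near the held share of all genes: CDT1A, a replication licensing factor, with 15.5 and 16.4 CPM in ask1 and 35.7 and 37.8 CPM in Col-0 (log2 change -1.20 ± 0.12, adjusted p = 6.70e-05), and MCM3, a helicase subunit, with 23.4 and 25.1 CPM in ask1 and 44.5 and 45.0 CPM in Col-0 (-0.89 ± 0.12, adjusted p = 4.81e-04). The falls numbered 22 without ask1 library 1, and 10 and 9 without Col-0 library 1 and 2. Of 26 senescence genes 9 fell and 2 rose, with 4 falls without Col-0 library 1. Of these 26 genes no fall held and 1 rise did. SAG12, a protease marker of late senescence, had 157 and 50.2 CPM in ask1 and 963 and 503 CPM in Col-0 (-2.82 ± 0.51, adjusted p = 0.00441). It was not called in the fit of the compared groups alone. Among 30 carpel, ovule and style genes 5 rose and 1 fell. HAF, a regulator of the transmitting tract that guides pollen tubes, had 66.9 and 64.8 CPM in ask1 and 24.8 and 30.8 CPM in Col-0 (1.25 ± 0.15, adjusted p = 1.95e-04), with an opposite-strand overlap. The rises of this list numbered 3 without Col-0 library 1 or 2.

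The remaining lists are given by their counts, beside 12.9% of all tested genes that rose and 14.3% that fell. Of 21 organ identity genes 2 rose and 2 fell (median log2 change 0.09), of 31 studied F-box genes 4 rose and 4 fell (0.00), of 27 gibberellin genes 4 rose and 8 fell (-0.06), of 28 auxin response factor and transport genes 1 rose and 7 fell (-0.32), and of 16 strigolactone and karrikin genes 1 rose and 1 fell (-0.24). Of 17 petal and sepal genes 2 rose and 4 fell (-0.09), of 11 nectary genes 3 fell (-0.25), of 14 heat shock genes 4 fell (-0.21), of 10 seed genes 1 rose and 3 fell (-1.01) and of 22 iron-deficiency genes 4 rose and 2 fell (0.28). Of 17 sulfur-deficiency genes 1 rose and 4 fell (-0.43) in flowers, and 6 were called between ASK1 WT and Col-0 flowers. For 12 of the 17 the ask1 difference was more positive in flowers than in buds, where the list's median was -2.48. Single libraries moved these counts too. Without ask1 library 2, 12 F-box, 16 auxin response factor and transport, and 8 strigolactone genes fell and 7 organ identity genes rose. Without ask1 library 1, 4 gibberellin and 7 nectary genes fell and 7 iron genes rose. Without Col-0 library 1 the falls were 2 each for F-box, gibberellin and heat shock genes and 1 for seed genes, and without Col-0 library 2 they were 1 for F-box, 4 for auxin response factor and transport, 1 for nectary and 2 for sulfur genes. BGLU28, a sulfur-deficiency induced glucosidase gene, had 4.43 and 3.18 CPM in ask1 flowers and 19.0 and 24.6 CPM in Col-0 flowers (-2.52 ± 0.28, adjusted p = 9.47e-05), low in both ask1 libraries. Genes without a symbol made up 12532 of the tested genes, of which 1627 rose and 1617 fell.

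ASK1 WT flowers, grown and sampled under the same labels, differed from Col-0 in few genes in the fit of all 6 groups. That fit shares its estimate of the spread with the ask1 flower libraries, which differed most between replicates. In a fit of the compared groups alone, ask1 against Col-0 had 347 rises and 1249 falls. For ASK1 WT against Col-0, 9 genes passed in the fit of all 6 groups (0.0411% of the tested genes), 7 higher and 2 lower in ASK1 WT, 790 had an unadjusted p under 0.05, and DESeq2 called 31. The count was 1 to 3 when a library of either group was left out, 1 without either ASK1 WT library and without Col-0 library 1 and 3 without Col-0 library 2, and it was 433 in a fit of these 4 libraries alone. Of the 9 genes, 6 were on the list of 17 sulfur-deficiency genes. The higher genes included APR1 and APR2, for enzymes of sulfate reduction. APR1, which has an opposite-strand overlap, had 146 and 143 CPM in ASK1 WT and 58.7 and 72.6 CPM in Col-0 (log2 difference 1.14, adjusted p = 0.0317), while the ask1 libraries had 33.3 and 29.1 CPM. MAF5, described above, was 1 of the 2 lower genes. For the evening genes COR27, GRP7 and FKF1, the ASK1 WT values were 0.989 and 0.875 CPM, 196 and 234 CPM, and 1.39 and 1.46 CPM, all below both Col-0 libraries.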

How the data were processed

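Total RNA of 12 libraries was sequenced. The deposited files held raw counts per gene; Trimmomatic, TopHat2, HTSeq and the TAIR10 build are named, without versions, per the submitters' processing notes, and the counting strand is not given in the sources used here. HTSeq's summary lines, 7.60% to 9.70% of each file, were left out. Counts were fitted in edgeR 4.0.16 (R 4.3.3) with TMM scaling, a low-count filter (minimum 10, total 15), robust quasi-likelihood tests over all 6 groups of 2 libraries and Benjamini-Hochberg adjustment over 21890 genes. SE is the size of the log2 change divided by the square root of F. Single-library differences used log2 CPM with a prior count of 2. Count ratios carry 95% intervals for counting error only, and a gene at 0 is bounded by 3 counts over the group. The fit was tested on simulated counts. Alternatives were a 2-fold threshold, RLE factors, no filter, removal of the length trend, only the groups compared, each library left out, and DESeq2 1.42.0.

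The naming rule took ASK1, ASK2, CUL1, TIR1 and COI1. It added the 15 largest rises and falls with a symbol and at least 1 CPM, and the 10 largest at 50 CPM or more. It also took the largest differences between tissues and between the ask1 libraries, and up to 8 called members per list. Not all genes of this rule are described here, and other genes were chosen after their values were seen. The members and the 34 gene lists, 939 names matched and 43 not, were chosen with earlier results of these data known. Gene names, exon lengths and promoters came from RefSeq TAIR10.1, which held 32835 of the 33602 identifiers. 1 promoter sequence is not reported here.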

Additional observations from a re-analysis of the deposited data

Results flagged for a closer look

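The ask1 difference from Col-0 differed between open flowers and buds in 1086 genes in edgeR's quasi-likelihood test of that difference. The 10 genes given here had the 5 largest fitted differences in each direction among those with a symbol and at least 1 CPM. Such a ranking favours genes near 0 in 1 group. In 5 of the 10 the ask1 difference was more positive in flowers. CCOAMT had 1.35 and 5.83 CPM in ask1 and 0.121 and 0.0619 CPM in Col-0 flowers, and 0 and 0.135 CPM in ask1 and 0.505 and 0.896 CPM in Col-0 buds, a difference of 8.57 ± 1.59 (adjusted p = 0.0153). LCR5 had 1.67 and 0.412 CPM in ask1 and 0.121 and 0.248 CPM in Col-0 flowers, where it did not pass, and 0.382 and 3.59 CPM in ask1 and 48.4 and 51.3 CPM in Col-0 buds, a difference of 7.16 ± 1.37 (adjusted p = 0.0179). NIP4;1, also not passing in flowers, had 0.128 and 0.589 CPM in ask1 and 0 and 0.0619 CPM in Col-0 flowers, and 1.09 and 2.84 CPM in ask1 and 14.2 and 21.4 CPM in Col-0 buds, a difference of 6.52 ± 1.44 (adjusted p = 0.0344). CYP71B8 had 9.51 and 9.24 CPM in ask1 and 16.3 and 21.2 CPM in Col-0 flowers, and 0 and 0 CPM in ask1 and 0.449 and 1.12 CPM in Col-0 buds, a difference of 5.78 ± 1.3 (adjusted p = 0.0367). PUM7 had 0.963 and 0.648 CPM in ask1 and 0 and 0.124 CPM in Col-0 flowers, and 6.65 and 8.46 CPM in ask1 and 28.5 and 40.6 CPM in Col-0 buds, a difference of 5.76 ± 0.99 (adjusted p = 0.0118). Fitted differences of genes near 0 depend on the prior count and are not bounds.

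In the 5 others it was more negative in flowers. RRTF1 had 0.706 and 0.530 CPM in ask1 and 21.8 and 13.6 CPM in Col-0 flowers, and 0.763 and 15.6 CPM in ask1 and 0 and 0.0560 CPM in Col-0 buds, a difference of -12.65 ± 2.17 (adjusted p = 0.0116). DDF1 had 0.193 and 0.118 CPM in ask1 and 8.35 and 2.72 CPM in Col-0 flowers, and 0.273 and 0.406 CPM in ask1 and 0 and 0 CPM in Col-0 buds, a difference of -10.67 ± 2.61 (adjusted p = 0.0487). ERF11 had 1.86 and 1.41 CPM in ask1 and 11.6 and 11.6 CPM in Col-0 flowers, and 1.09 and 8.53 CPM in ask1 and 0.112 and 0.168 CPM in Col-0 buds, a difference of -7.82 ± 1.24 (adjusted p = 0.00759). TI1, a trypsin inhibitor gene, had 9.89 and 3.41 CPM in ask1 and 20.6 and 14.3 CPM in Col-0 flowers, and 49.4 and 41.2 CPM in ask1 and 0.785 and 0.840 CPM in Col-0 buds, a difference of -7.19 ± 0.58 (adjusted p = 8.68e-04). WRKY40 had 2.38 and 4.18 CPM in ask1 and 28.4 and 23.4 CPM in Col-0 flowers, and 1.58 and 20.7 CPM in ask1 and 1.07 and 0.392 CPM in Col-0 buds, a difference of -6.86 ± 1.33 (adjusted p = 0.0184). The flower calls of CYP71B8 and TI1 were lost in the fit of the compared groups alone and without Col-0 library 2 and Col-0 library 1 in turn, and that of PUM7 in the compared groups alone and without ask1 library 1 or either Col-0 library. The ask1 bud libraries lay far apart in RRTF1, ERF11 and WRKY40. The flower calls of RRTF1, DDF1, ERF11 and WRKY40 were lost without either ask1 library, and the loci of RRTF1 and WRKY40 are overlapped by annotation of the other strand.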

How the results depend on the processing

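The numbers of genes that rose and fell, 2816 and 3137, were 162 and 892 against a 2-fold threshold and 347 and 1249 in a fit of the compared groups alone, and 1865 rose without the low-count filter. Leaving out 1 library gave 658 to 5586 rises and 2162 to 5661 falls. Of the 5953 called genes, 1054 (17.7%) kept their call at the 2-fold threshold, 2833 (47.6%) without Col-0 library 2, 1588 (26.7%) in the compared groups alone and 4941 (83.0%) with the length trend removed. The 9 genes that differed between ASK1 WT and Col-0 became 1 at the 2-fold threshold, 433 in their groups alone, 31 in DESeq2 and 1 to 3 with a library left out. The 1086 differences between tissues became 112 at the 2-fold threshold, 254 in the groups alone, 1762 with the length trend removed, 1763 in DESeq2 and 250 to 8210 with a library left out. The causes were not tested beyond what fewer libraries and a higher threshold set by construction. Of 258 called genes named by the rule none changed direction under any alternative, and 171 lost their call at the 2-fold threshold, 139 in the groups alone, 88 without Col-0 library 2 and 16 with the length trend removed. No paired analysis was possible because the labels give no replicate numbers. With 2 libraries a group, depth limits genes near 3 counts.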
